A study of Rattus norvegicus with 3 samples.

Results

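The expression of 10 genes of the presynaptic active zone, the site of transmitter release, was measured by mRNA sequencing in the motor cortex of 3 male rats without treatment. The animals were of the outbred Sprague-Dawley stock, with 1 library each. The 10 genes (Bsn, Pclo, Rims1, Rims2, Unc13a, Unc13b, Erc2, Ppfia2, Ppfia3 and Rimbp2) were taken by symbol, each had 1 gene ID, and they are 10 of 30957 genes in the deposited tables. The animals carry the numbers 32, 39 and 68 and form 1 group, called normal, with no treatment and a time of 8 weeks that the labels do not explain. Levels are FPKM, the fragments counted for a gene divided by its length and by the size of the library, so levels of different genes are compared per length. The data show which active zone genes predominate in this tissue and how far their levels differ between these animals. They compare no treatment, and the p-values below rest only on the spread between these 3 libraries, of the genes compared or of other genes.

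The active zone is the patch of presynaptic membrane where vesicles fuse. Munc13 proteins prime vesicles by helping the SNARE proteins assemble. RIM proteins bind Rab3 on the vesicle, Munc13 and, partly through RIM-binding proteins, the calcium channels that trigger release. Bassoon and piccolo are giant scaffolds that span the site, and ELKS and liprin alpha proteins tie it together and to adhesion receptors of the LAR phosphatase type. These proteins act at both excitatory and inhibitory synapses of the cortex.

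Promoters are shown for the pairs of related genes compared below in which both genes are among the 10 and have a RefSeq entry. The sequences of the higher and the lower gene can thus be read side by side. RefSeq promoters in the rat build GRCr8 were found for 7 of the 10 genes, and not for Rims2, Ppfia2 and Rimbp2. Each line holds the 250 bases before the gene's start, 5′ to 3′ on the gene's strand, with capitals for GGGCGG or its complement CCGCCC (the GC box bound by Sp1) and for the palindrome bound by NRF1, the longer runs in the Bsn line. Unc13b has 2 starts in the table, and both are given.
Bsn, chr8:117754413-117754662, minus strand: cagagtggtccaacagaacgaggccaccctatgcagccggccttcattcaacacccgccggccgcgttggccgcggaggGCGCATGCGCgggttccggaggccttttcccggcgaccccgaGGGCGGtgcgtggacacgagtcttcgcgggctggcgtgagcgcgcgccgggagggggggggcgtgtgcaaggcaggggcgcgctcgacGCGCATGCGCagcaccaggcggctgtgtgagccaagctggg
Pclo, chr4:21005112-21005361, minus strand: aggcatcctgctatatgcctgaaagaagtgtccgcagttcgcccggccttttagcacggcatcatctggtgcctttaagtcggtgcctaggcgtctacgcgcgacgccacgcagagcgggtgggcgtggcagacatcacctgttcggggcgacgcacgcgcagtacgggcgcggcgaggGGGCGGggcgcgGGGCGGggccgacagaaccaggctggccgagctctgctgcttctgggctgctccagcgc
Unc13a, chr16:18415787-18416036, minus strand: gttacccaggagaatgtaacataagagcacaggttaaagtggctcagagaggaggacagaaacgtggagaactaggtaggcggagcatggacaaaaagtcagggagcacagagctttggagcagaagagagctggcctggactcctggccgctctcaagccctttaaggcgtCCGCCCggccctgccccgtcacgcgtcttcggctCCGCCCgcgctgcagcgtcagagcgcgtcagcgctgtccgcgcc
Unc13b, the first start, chr5:62084787-62085036, plus strand: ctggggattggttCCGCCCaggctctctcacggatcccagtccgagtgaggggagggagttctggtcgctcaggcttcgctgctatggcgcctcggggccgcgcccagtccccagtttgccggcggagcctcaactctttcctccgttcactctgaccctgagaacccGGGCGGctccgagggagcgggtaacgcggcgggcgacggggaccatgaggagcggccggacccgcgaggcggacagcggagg
Unc13b, the other start, chr5:62245379-62245628, plus strand: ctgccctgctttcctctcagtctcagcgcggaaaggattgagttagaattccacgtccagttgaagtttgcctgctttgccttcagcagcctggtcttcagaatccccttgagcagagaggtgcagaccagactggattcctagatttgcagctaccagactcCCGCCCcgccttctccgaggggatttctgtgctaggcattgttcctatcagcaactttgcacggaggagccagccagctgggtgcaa

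All 7 matched genes held at least 1 GC box in these 250 bases on either strand. The same letters occur in 30.5% of the 33469 promoters of that length in the table and in 57.8% of the 10352 promoters whose gene averaged 1 FPKM or more here. The NRF1 palindrome was found, among these genes, in the Bsn promoter alone, at 2 places that begin 171 and 41 bases before the start, and neither overlaps the GC box of that promoter. It occurs in 0.762% of all promoters and in 1.62% of those of genes that averaged 1 FPKM or more. TATAAA or its complement was in none of the 7 genes' promoters, in 12.9% of all and in 6.38% of those of genes that averaged 1 FPKM or more. CCAAT or its complement was in those of Erc2 and Unc13b, in 34.0% of all and in 34.4% of the latter. The 8 promoters of these genes held a median of 24.5 CG dinucleotides (7 to 33), against 16 for genes that averaged 1 FPKM or more. These matches describe the letters only, in a later build than the Rnor_6.0 coordinates of the tables.

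Neuronal markers were present in all libraries. All 10 reached 1 FPKM in each animal, with summed levels of 2678, 2482 and 2160 FPKM in animals 32, 39 and 68. The depth inferred from short loci was 15460924 to 17670986 fragments. At that depth the 10 genes rested on 98.8 fragments per kilobase (Unc13b in animal 68) to 1124 (Ppfia3 in animal 32). The library of animal 68 stood apart in markers of other cells. All 9 choroid plexus markers were highest there, with summed levels of 60.9, 708 and 8214 FPKM in animals 32, 39 and 68. Summed oligodendrocyte markers were 1933, 2749 and 5153, astrocyte markers 773, 885 and 1674, microglial markers 45.3, 74.4 and 104, and striatal neuron markers 124, 98.4 and 236. No marker of these lists was listed at 0 in all animals. The part of these cells in the differences between animals given below was not tested, and in bulk tissue fewer cells of a type and less RNA per cell cannot be told apart.

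All 10 active zone genes reached 1 FPKM in every animal. Their means ran from 57.7 FPKM for Unc13a to 6.60 FPKM for Unc13b, a range of 8.73-fold. The median over the 10 genes was 20.9, 25 and 19.8 FPKM in animals 32, 39 and 68, beside 9.82, 10.3 and 10.8 FPKM for the 13378 genes that averaged 1 FPKM or more. Of the 10 genes, 8 lay above the median level of those 13378 genes (10.4 FPKM), and Rims2 and Unc13b lay below it. The highest, Unc13a, exceeded 90.5% of them and the lowest, Unc13b, 36.2%.

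**Figure D1:**
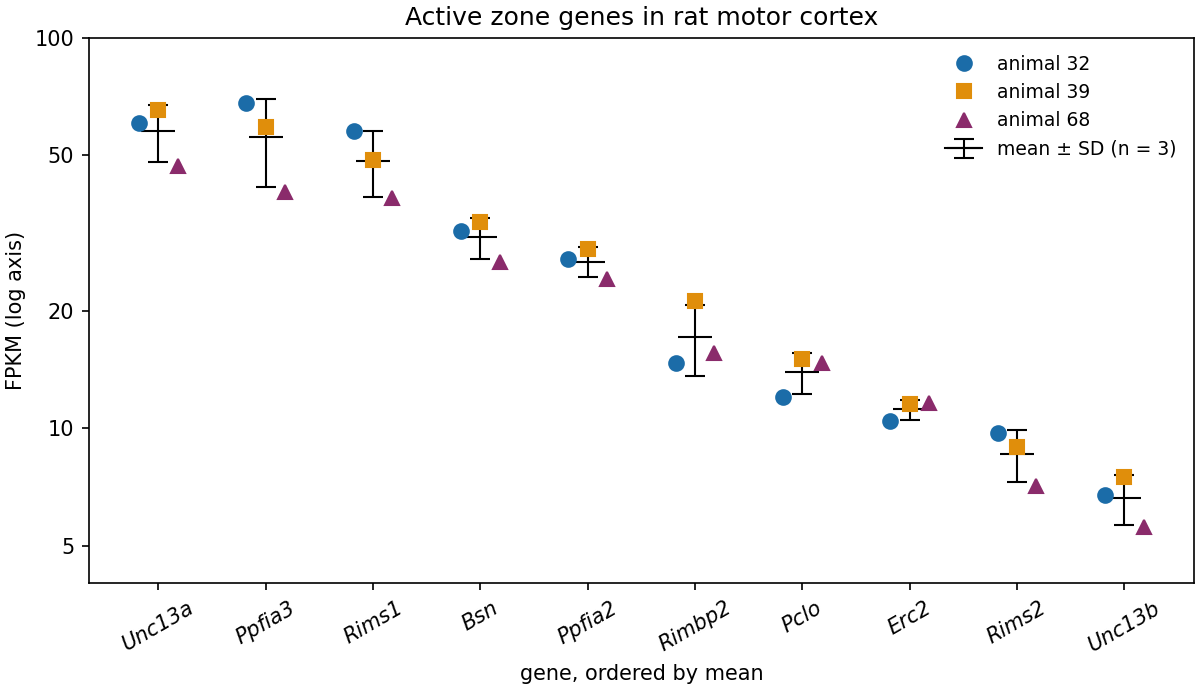
FPKM on a log axis of the 10 active zone genes, ordered by mean, in animals 32 (circles), 39 (squares) and 68 (triangles), with mean ± SD over 3 animals. Unc13a, Ppfia3 and Rims1 sit no lower than 38.8 FPKM, and Rims2 and Unc13b below 10 FPKM in every animal.

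Ratios of relatives were tested with limma on log2(FPKM + 0.1) within each animal, with every gene of the table set against the lower or second gene of the pair and Benjamini-Hochberg adjustment over 13377 genes. Every ratio of such a fit shares the deviations of that second gene, so the spread that limma borrows across genes is not independent and its p-values may be too small. The adjusted p without variance moderation, which uses the 3 ratios of the pair alone, was added after the data were seen. It stands beside each of the 6 pairs and, in the order below, beside the 3 passing steps and Bsn over Ppfia2. Fits that left out an animal are given with limma's p only. For Erc2 over Erc1 and Rimbp2 over Tspoap1, limma took the spread from other genes alone and did not use that of the pair. The same holds for Unc13a over Ppfia3 and Ppfia2 over Rimbp2 in the order below. Of 6 pairs, 5 passed both ways. Neither test covers errors of gene length or mapping, which are the same in all 3 animals.

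Among the vesicle priming factors, the Munc13 family was dominated by Unc13a. Unc13a (chromosome 16, 20056765 to 20097287, minus strand, in Rnor_6.0, as are all loci below), which encodes Munc13-1, the main priming factor of cortical glutamatergic synapses, measured 60.6, 65.4 and 47.0 FPKM in animals 32, 39 and 68 (57.7 ± 9.55, SD, n = 3). Its relative Unc13b (chromosome 5, 58505500 to 58715576, plus strand), which encodes Munc13-2, measured 6.73, 7.49 and 5.59 FPKM (6.60 ± 0.958). Both genes were highest in animal 39 and lowest in animal 68, and their values did not overlap. Unc13a exceeded Unc13b 8.89-, 8.63- and 8.28-fold in animals 32, 39 and 68. Its log2 ratio was 3.10 (SE 0.16; limma, adjusted p = 8.39e-14, and 0.0112 without variance moderation). In the same limma fit 53.5% of all genes tested were called higher than Unc13b. The other Munc13 genes were low. Unc13c, known mainly from cerebellum, measured 1.22, 0.962 and 1.89 FPKM, and Unc13d, a factor of secretion in blood cells, 0.436, 0.685 and 0.753. Unc13a thus held 86.9 ± 1.57% of the summed FPKM of the family and Unc13b 9.98 ± 0.193% (SD, n = 3).

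Rims1 led the RIM family. Rims1 (chromosome 9, 28442229 to 28973246, minus strand), the RIM1 scaffold that recruits calcium channels and activates Munc13, measured 57.6, 48.7 and 38.8 FPKM in animals 32, 39 and 68 (48.4 ± 9.38). Rims2 (chromosome 7, 78092037 to 78594138, plus strand), which encodes the related RIM2, measured 9.69, 8.93 and 7.11 FPKM (8.58 ± 1.32). Animal 32 was highest and animal 68 lowest for both, and the 2 genes did not overlap. Rims1 exceeded Rims2 5.89-, 5.40- and 5.40-fold, a log2 ratio of 2.47 (SE 0.13; limma, adjusted p = 1.94e-06, and 0.00923 without variance moderation), where 45.1% of genes were called higher than Rims2. Rims3 and Rims4 encode short forms that keep only the last C2 domain of RIM. Rims3 measured 34.8, 25.6 and 10.2 FPKM and Rims4 33.9, 29.9 and 17.0. Together the family summed to 136, 113 and 73.2 FPKM, with Rims1 at 46.1 ± 6.0% of it, Rims4 at 24.9 ± 1.57%, Rims3 at 20.7 ± 6.06% and Rims2 at 8.25 ± 1.33%. The share of Rims3 was 25.6% in animal 32 and 14.0% in animal 68, while that of Rims1 was 42.3% and 53.1%.

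The giant scaffolds lay closer together. Bsn (chromosome 8, 116873721 to 116965396, minus strand), which encodes bassoon, measured 31.9, 33.8 and 26.6 FPKM in animals 32, 39 and 68 (30.8 ± 3.70). Pclo (chromosome 4, 16496895 to 16669368, minus strand), which encodes piccolo, measured 12, 15.0 and 14.6 FPKM (13.9 ± 1.66). Bsn was lowest in animal 68 and Pclo in animal 32. The ratio of Bsn to Pclo was therefore less even than those of Munc13 and RIM, at 2.65, 2.24 and 1.81. Its log2 value was 1.14 (SE 0.17; limma, adjusted p = 4.49e-07, and 0.0354 without variance moderation), where 32.9% of genes were called higher than Pclo. Bsn held 72.7, 69.2 and 64.5% of the summed FPKM of the pair.

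Liprin alpha proteins, which bind LAR-type phosphatases, RIM and ELKS, were represented mainly by Ppfia3 and Ppfia2. Ppfia3 (chromosome 1, 101327998 to 101351879, minus strand) measured 67.9, 59.0 and 40.2 FPKM in animals 32, 39 and 68 (55.7 ± 14.1), and Ppfia2 (chromosome 7, 48867664 to 49042455, plus strand) 27.1, 28.8 and 24.1 FPKM (26.7 ± 2.35). The animals were spread widely for Ppfia3, with animal 68 lowest, and narrowly for Ppfia2, and the 2 genes did not overlap. The locus of Ppfia3 overlaps Hrc on the other strand, which averaged 0.610 FPKM. Ppfia3 exceeded Ppfia2 2.50-, 2.05- and 1.66-fold, a log2 ratio of 1.03 (SE 0.14; limma, adjusted p = 0.000484, and 0.0371 without variance moderation), where 17.3% of genes were called higher than Ppfia2. Ppfia4, the other neuronal form, measured 12.8, 13.6 and 15.7 FPKM and the widely expressed Ppfia1 3.40, 4.18 and 4.73, both highest in animal 68. Ppfia3 held 54.8 ± 6.88% of the family, Ppfia2 26.7 ± 2.12%, Ppfia4 14.3 ± 3.70% and Ppfia1 4.20 ± 1.28%. The liprin beta genes, whose proteins pair with liprin alpha, stood at 12.9, 12.9 and 10.2 FPKM for Ppfibp1 and 3.92, 5.17 and 12.7 FPKM for Ppfibp2. Ppfibp2 shares its locus and strand with Olfml1, which measured 8.49, 8.14 and 24.1 FPKM, so fragments of the 2 genes may be mixed.

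For ELKS and RIM-binding proteins, the gene among the 10 was set against a relative outside them, Erc1 and Tspoap1, and both relatives had the higher mean. Erc2 (chromosome 16, 3293599 to 3679222, plus strand), the brain form of ELKS also called CAST, measured 10.4, 11.5 and 11.6 FPKM in animals 32, 39 and 68 (11.2 ± 0.652). Its widely expressed relative Erc1 measured 11.2, 14.5 and 17.0 FPKM (14.3 ± 2.92). Erc1 was the higher in each animal, by a log2 difference that ran from 0.11 in animal 32 to 0.55 in animal 68. Erc2 over Erc1 was -0.33 on the log2 scale (SE 0.22) and did not pass (limma, adjusted p = 0.154, and 0.158 without variance moderation), while 50.1% of genes were called lower than Erc1. Without animal 32 the pair passed, at -0.45 (limma, adjusted p = 0.0433).

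Rimbp2 (chromosome 12, 31530699 to 31620760, plus strand), which links RIM to calcium channels, measured 14.7, 21.2 and 15.5 FPKM (17.1 ± 3.53), with animal 39 above the other two. Piwil1, on the other strand of the same locus, averaged 0.0409 FPKM. Its relative Tspoap1, listed in the tables under the older symbol Bzrap1 and also known as RIM-BP1, measured 66.8, 66.6 and 41.4 FPKM (58.3 ± 14.6), with animal 68 below the other two. Tspoap1 exceeded Rimbp2 in 3 of 3 animals, on average 3.35-fold. The log2 ratio of Rimbp2 over Tspoap1 was -1.74 (SE 0.31; limma, adjusted p = 2.96e-08, and 0.0291 without variance moderation), where 85.1% of genes were called lower than Tspoap1. Tspoap1 held 81.0, 75.1 and 72.0% of the family's FPKM in animals 32, 39 and 68. Rimbp3 measured 0.928, 0.860 and 0.573 FPKM, 1.03 ± 0.0837% of the family.

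**Figure D2:**
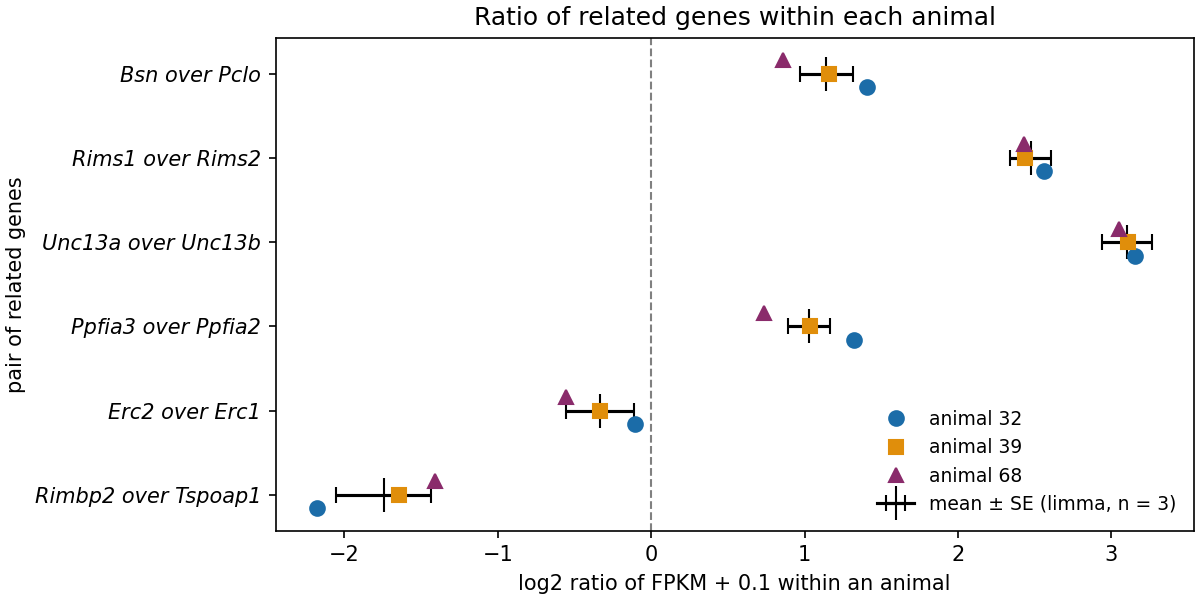
Log2 ratio of FPKM + 0.1 between related genes within animals 32 (circles), 39 (squares) and 68 (triangles), with the mean and limma's SE over 3 animals. Unc13a over Unc13b and Rims1 over Rims2 are tightly grouped at about 3.10 and 2.47, while Erc2 over Erc1 lies at -0.11, -0.34 and -0.55.

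**Figure D3:**
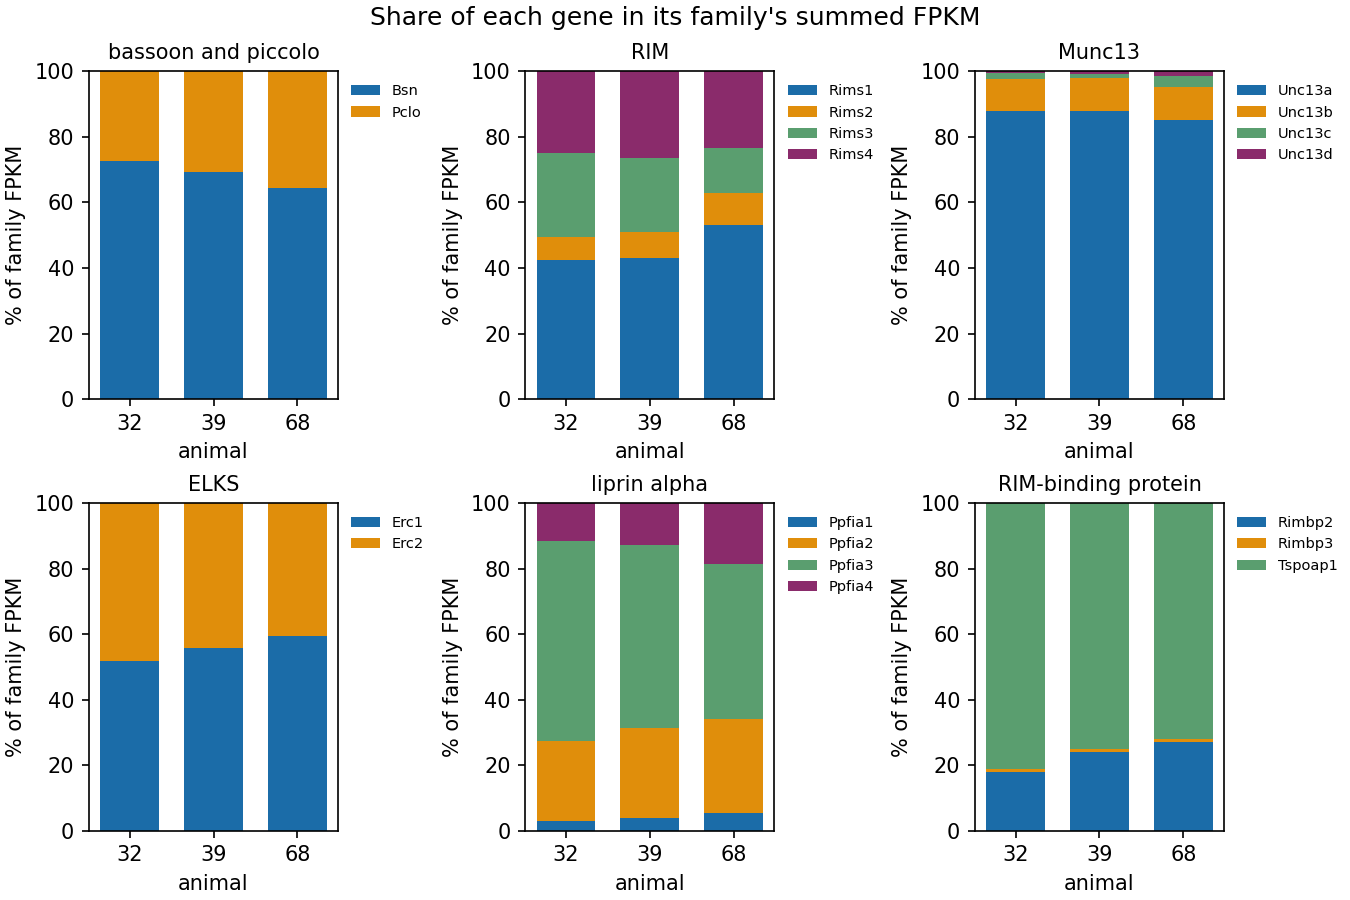
Share of each gene in the summed FPKM of its family, in percent, with 1 stacked bar per animal. Unc13a takes 85.1 to 87.8% of the Munc13 bar, and Rims3 takes 25.6, 22.7 and 14.0% of the RIM bar in animals 32, 39 and 68.

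The order of the 10 genes by mean was Unc13a, Ppfia3, Rims1, Bsn, Ppfia2, Rimbp2, Pclo, Erc2, Rims2 and Unc13b. Of its 9 steps, 3 passed the limma test with the lower gene as reference. The steps and their reference genes were taken from the means of these same libraries, so the direction of a step was largely set beforehand. Rims1 exceeded Bsn by 0.64 on the log2 scale (SE 0.13; limma, adjusted p = 0.0019; 0.0371 without variance moderation), where 14.5% of genes were called higher than Bsn. Ppfia2 exceeded Rimbp2 by 0.65 (SE 0.25; limma, adjusted p = 0.0147; 0.0633 without variance moderation), where 24.4% were called higher than Rimbp2. Pclo exceeded Erc2 by 0.31 (SE 0.10; limma, adjusted p = 0.0277; 0.0457 without variance moderation), where 39.9% were called higher than Erc2. The step from Rims1 to Bsn was lost without animal 32 (adjusted p = 0.0529, limma), that from Ppfia2 to Rimbp2 without animal 32 (0.183) or 68 (0.17), and that from Pclo to Erc2 without animal 39 (0.216). The first 2 steps, among Unc13a, Ppfia3 and Rims1, did not pass (limma, adjusted p = 0.805 for Unc13a over Ppfia3 and 0.347 for Ppfia3 over Rims1), where 6.22% of genes were called higher than Ppfia3 and 8.25% higher than Rims1. Unc13a over Rims1 is no step of the order and was not tested. Ppfia3 was above Unc13a in animal 32 and below it in animals 39 and 68. Bsn exceeded Ppfia2 by 0.20 and did not pass (limma, adjusted p = 0.0948), but passed without variance moderation (0.0327) and without animal 68 (0.0426). Rimbp2 and Pclo, Erc2 and Rims2, and Rims2 and Unc13b did not pass either, with log2 steps of 0.29, 0.39 and 0.37. The last of these passed without animal 68 (limma, adjusted p = 0.00765).

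Differences between animals rest on 1 library each and have no test. Ppfia3 was the 1 gene of the 10 more than 1.5-fold lower in animal 68 than in animal 32 (1.69-fold), beside 7.94% of the 13378 genes that averaged 1 FPKM or more, so the share of these genes is near that of all genes. Rims1 followed at 1.48-fold, Rims2 at 1.36-fold and Unc13a at 1.29-fold. No gene of the 10 was more than 1.5-fold higher in animal 68 than in animal 32, where 19.4% of all genes were. None was past 1.5-fold between animals 39 and 68 (6.53% of all genes lower and 12% higher in animal 68) or between animals 32 and 39 (2.23% lower and 8.10% higher in animal 39). These counts are for the scaling of the authors. With median-of-ratios scaling Rims1 and Ppfia3 were past 1.5-fold lower in animal 68 than in 32 (10.4% of all genes) and Ppfia3 lower than in 39 (7.51%), and the same genes were with totals without mitochondrial genes (9.68% and 7.62%).

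Animal 68 gave the lowest value of the 3 for 7 of the 10 genes, beside 35.5% of all genes. Animal 32 gave it for Rimbp2, Pclo and Erc2 (43.2% of all genes) and animal 39 for none (21.3%). The median log2 difference between animals 68 and 32 was -0.26 for the 10 genes and 0.07 for all genes that averaged 1 FPKM or more. Animal 68 was also lowest for 19 of 23 SNARE genes and regulators, 8 of 10 calcium channel genes and 7 of 10 neuronal markers. The count was 9 of 11 vesicle, 11 of 15 postsynaptic and 12 of 20 other scaffold genes, and 4 of the 9 paralogues that averaged 1 FPKM or more. Their median log2 differences were -0.45, -0.39, -0.20, -0.38, -0.38, -0.16 and 0.29, in that order. Apart from the paralogues, these lists thus went the same way as the 10 genes. The difference of Rimbp2 was 0.08 and turned to -0.01 with median-of-ratios scaling, while the other 9 genes kept their sign under the 3 alternative scalings. Pclo was 1.22-fold and Erc2 1.11-fold higher in animal 68 than in 32. Among the 10 genes, the span of the locus did not order these differences. With 10 genes and 1 pair of libraries this cannot decide whether length plays a part. Transcript length, and the relation over all genes, was not tested. The 10 loci span 23.9 kb (Ppfia3) to 531 kb (Rims1), with a median of 174 kb against 20.1 kb for all 13378 genes, and Spearman's rho between span and log2 difference was 0.00606 across the 10 genes, which share the same pair of libraries.

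Spread over the animals differed among the genes. The SD of log2(FPKM + 0.1) was 0.39 for Ppfia3, 0.28 for Rims1 and Rimbp2, 0.25 for Unc13a and 0.08 for Erc2, with a median of 0.22 for the 10 genes and 0.20 for all 13378. Without animal 68 these medians were 0.10 and 0.12. Among the 500 genes nearest in level, Ppfia3 varied more than 87.8%, Rims1 than 81.0%, Rimbp2 than 80.0% and Unc13a than 75.8%. Erc2 varied more than 18.8% of its neighbours. When each value was taken relative to the mean log2 level of the 10 neuronal markers in the same animal (7.29, 7.24 and 7.03 in animals 32, 39 and 68), the median SD of the 10 genes was 0.14 and that of all 13378 genes 0.25. The SD was smaller for 30.5% of all genes and for 7 of the 10, such as Rims1 (0.15), Bsn (0.08 from 0.18) and Ppfia3 (0.25), and larger for Pclo (0.28 from 0.18), Erc2 (0.21) and Rimbp2 (0.29). Without animal 68 the median SD of the 10 genes was larger relative to the markers (0.12) than before (0.10), and the SD was smaller for 3 of the 10 genes and 38.8% of all. Relative to these markers, Ppfia3 was lowest in animal 68, at -1.70 against -1.20 in animal 32 and -1.36 in animal 39.

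Other genes of the release site were counted in lists, as a description. Of all genes that averaged 1 FPKM or more, 7.94% were more than 1.5-fold lower in animal 68 than in 32 and 19.4% higher. The counts of each list stand beside these shares, and small counts may not differ from them. Of the 11 paralogues of the 10 genes, 8 reached 1 FPKM in every animal. Among the 9 paralogues with a mean of at least 1 FPKM, 3 were more than 1.5-fold lower in animal 68 than in 32 (Rims3 3.39-fold, Rims4 1.99-fold and Tspoap1 1.61-fold) and 3 higher (Ppfibp2 3.18-fold, Unc13c 1.52-fold and Erc1 1.51-fold). The SNARE proteins and regulators on which Munc13 and RIM act were all detected, with 23 of 23 reaching 1 FPKM in each animal and a median of 126 FPKM. Highest were the membrane SNARE Snap25 (954 ± 261 FPKM), the vesicle GTPase Rab3a (414 ± 74.5), which RIM binds, and the vesicle SNARE Vamp2 (402 ± 43.7). In this list 9 of 23 genes were more than 1.5-fold lower in animal 68 than in 32 and 1 was higher.

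Calcium channel subunits of release sites had a median of 28.0 FPKM, all 10 detected in every animal, led by the auxiliary subunits Cacnb3 (79.7 ± 19.7), Cacna2d3 (59.4 ± 6.68) and Cacnb1 (40.0 ± 3.63). Of the 10, 1 was more than 1.5-fold lower in animal 68 than in 32 and 1 higher. The 20 other presynaptic scaffold and adhesion genes had a median of 33.0 FPKM, led by Git1 (178 ± 21.8), which binds piccolo, the LAR-type phosphatase Ptprs (95.2 ± 7.0) and Ctbp1 (77.6 ± 8.58), which binds bassoon and piccolo. In animal 68, 3 of the 20 were lower than in 32 by that measure and 1 higher. Synaptic vesicle genes had a median of 94.6 FPKM, with the membrane protein Syp at 544 ± 71.5, the vesicular glutamate transporter Slc17a7 at 517 ± 21.1 and the synapsin Syn1 at 239 ± 43.1, and 0 of 11 were lower and 1 higher. On the other side of the synapse, excitatory scaffold genes had a median of 48.0 FPKM, with Dlg4, which encodes PSD-95, at 210 ± 36.3 and the scaffold gene Shank1 at 103 ± 20.2. There, 1 of 15 genes was lower and 1 higher in animal 68. The 10 active zone genes, with a median of 21.9 FPKM, lay below these 5 lists in level, as a description of the genes chosen.

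**Figure D4:**
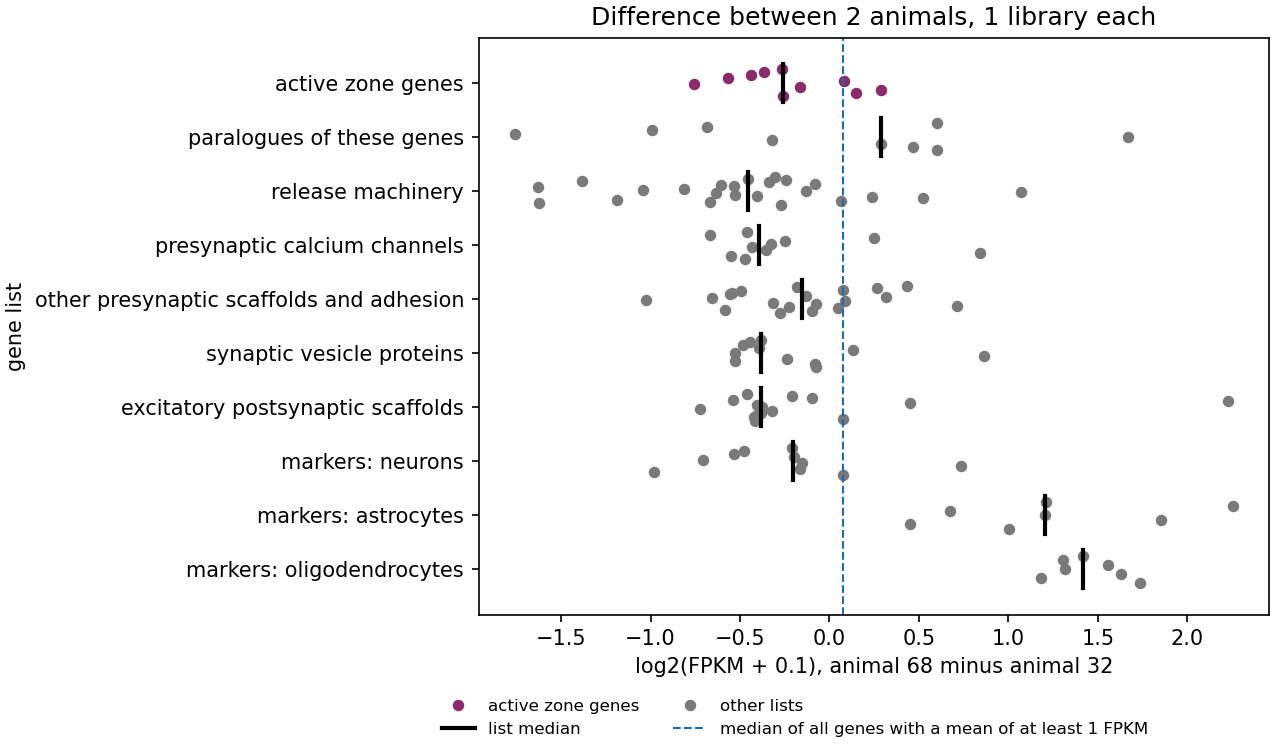
Log2(FPKM + 0.1) in animal 68 minus animal 32 (1 library each) for genes that averaged 1 FPKM or more, by list, with list medians as black bars and the median of all genes dashed. The active zone genes lie between -0.75 and 0.29, with Rimbp2 near 0 and of changing sign under other scalings, while the oligodendrocyte markers lie between 1.18 and 1.74.

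Marker lists of cell classes gave the frame for these values. Glutamatergic markers were found for 6 of 7 symbols, with summed levels of 2347, 2320 and 1747 FPKM in animals 32, 39 and 68, and 3 of the 6 were more than 1.5-fold lower in animal 68 than in 32 and 1 was higher. GABAergic markers summed to 512, 462 and 319 FPKM, with 5 of 7 lower and 0 higher. Endothelial markers, found for 4 of 5 symbols, summed to 111, 97.5 and 89.2 FPKM. Of the neuronal markers, 2 of 10 were lower and 1 higher. All 7 oligodendrocyte, 6 of 7 astrocyte, 6 of 7 microglial, 6 of 7 striatal and all 9 choroid plexus markers were more than 1.5-fold higher in animal 68 than in 32. By that measure 19.4% of all genes were higher and 7.94% lower.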

How the data were processed

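The members and gene lists were chosen with earlier results of these data known. One mRNA library per animal was sequenced from 3 animals of 1 group. Per the labels, the authors counted fragments for each gene, normalized these and computed the deposited FPKM in Perl. The submitters' processing notes list HISAT2 2.0.4, StringTie 1.3.0 and Rnor_6.0, with no statement of which did what. Whether counting used strand, and which annotation it used, is not given in the sources used here, so fragments of overlapping or near-identical genes cannot be told apart. No nonzero value of a gene was shared between libraries. The labels number the rats separately.

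Depth was inferred from detected loci of up to 400 bases, as the number of fragments that makes the median of the 30 smallest values 1 fragment. Of the values at these loci, 82.0 to 86.6% were within 0.02 fragments of a whole number, the smallest by construction. Intervals from counts were not made, since lengths of genes with several exons were not recovered, and depth covers counting error only.

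Values were analysed as log2(FPKM + 0.1), with a filter at a mean of 1 FPKM (13378 of 30957 genes; all 10 active zone genes passed). Ratios of 6 pairs of relatives and of 9 neighbours in the order went into limma 3.58.1, run under R 4.3.3. The fit was a one-sample model within animals, with trended variance, Benjamini-Hochberg over 13377 genes and a threshold of 0.05. It was first run on simulated data with a single reference gene and with spreads shuffled among genes. That run cannot show that the p-values given here are right. A fold change is on the FPKM + 0.1 scale, which understates that of low genes. Folds between animals were called past 1.5-fold. Of 164 listed symbols, 162 were found, Tspoap1 through an older symbol in RefSeq's gene table; Neurod2 and Pecam1 were not. For 3 symbols with several gene IDs, the ID with the highest mean was taken. Named are all 10 genes, their paralogues and the 3 highest genes of each other list, of which 1 is not reported here; Olfml1, Hrc and Piwil1, which overlap named genes, were chosen after their values were seen. Python 3.11.15, numpy 2.4.6, pandas 2.3.3, scipy 1.17.1 and matplotlib 3.10.9 were used for the rest. Alternatives changed the pseudocount (1 or 0.01), scaling, filter (none, or 5 FPKM), variance model, fold threshold and neighbour number (200 or 1000), and left out each animal.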

Additional observations from a re-analysis of the deposited data

How the results depend on the processing

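Of 296 values recomputed without leaving out an animal, 286 kept their direction and side of the threshold, or moved by less than the limit set for them. Many of the 296 could hardly move, so this count says little about how firm the results are. Ratios within an animal barely depend on scaling, and levels in FPKM do not use the pseudocount. Each of the 10 genes has 1 gene ID, and all 10 pass every filter. No paired analysis was possible because all animals form 1 group, with no second group to pair, while ratios of genes were taken within animals. The 5 passing pairs of relatives passed under every alternative run. Erc2 over Erc1 passed without animal 32, at -0.45, and ranged from -0.45 to -0.22 when an animal was left out, so 5 to 6 pairs passed. When an animal was left out, 1 to 4 of the 9 steps in the order passed, and the step from Unc13a to Ppfia3 turned to -0.0082 without animal 68 (range -0.0082 to 0.19). With totals without mitochondrial genes or with median-of-ratios scaling, 2 genes were more than 1.5-fold lower in animal 68 than in 32, and 1 lower than in 39. At 2-fold 0 genes were lower in animal 68 than in 32 (3.05% of all genes). Past 0.32 on the log2 scale, 4 were lower in animal 68 than in 32 (17.1%), 7 lower than in 39 (15.7%) and 2 higher in animal 39 than in 32 (18.7%). Among the runs that left out an animal, the median SD of the 10 genes ranged from 0.10 without animal 68 to 0.24 without animal 32. With all animals it was 0.20 with totals made equal, 0.25 with totals without mitochondrial genes and 0.26 with median-of-ratios scaling. Ranges over 2 animals are not strictly comparable with those over 3, and 3 animals limit every test.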
